A study of Homo sapiens with 6 samples.

Results

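The genes described here are the solute carriers expressed in cells labelled Hep3B, a human hepatocellular carcinoma line. They were taken by symbol and level. Protein-coding genes whose name starts with SLC or SLCO followed by a digit were kept when their mean over the 6 libraries was at least 100 scaled reads, that is, reads counted on the gene divided by the size factor of the library. This gave 183 of the 330 protein-coding genes with such a name, out of 27009 genes in the table. The RNA came from a line made to carry PD-L1 in the nucleus (nPD-L1) and from its empty-vector counterpart, and 3 libraries of each were sequenced. All 6 libraries came from Hep3B cells that had lost their own PD-L1 gene by knockout. The vector group carried the empty lentiviral vector, and the nPD-L1 group overexpressed a mutated PD-L1 from the same vector under a CMV promoter. Both were stable lines. The study calls the libraries of a group independent samples but does not say whether each came from a culture of its own, and the labels do not either, so the p values below measure the spread between these libraries, which may in part be technical.

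Solute carriers are membrane proteins that move nutrients, metabolites and ions across the plasma membrane and the membranes of organelles, as uniporters, cotransporters or exchangers. They set the entry of glucose and amino acids, the exit of lactate and zinc, cell volume and pH, and the traffic of metabolites between mitochondria and cytosol. The hepatocyte is known for a set of its own, such as the bile acid carrier SLC10A1 and the glucose carrier SLC2A2, and fast-growing tumor cells are known for high levels of SLC2A1, SLC7A5 and SLC1A5.

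The name pattern was checked first. Of the 183 genes, 5 encode proteins that are not carriers, the scaffold proteins SLC9A3R1 and SLC9A3R2 and the genes SLC7A6OS, SLC2A4RG and SLC4A1AP. The other 178 are called carriers here by family, which also takes in SLC3A2, a heavy chain, and SLC27A5, which couples bile acids to coenzyme A. Grouped by family and main substrate, these 178 were 35 mitochondrial carriers of the SLC25 family, 27 carriers of nucleosides and nucleotide sugars and 24 of amino acids and related compounds. The rest were 21 carriers of inorganic ions, 21 of metals and heme, 19 of carboxylates and lipids, 13 of glucose and other sugars, 11 of organic ions and 7 of vitamins. Of these 183, 3 reached the minimum only with the help of the nPD-L1 group, since their vector mean was under 100 scaled reads, namely SLCO5A1, SLC44A3 and SLC10A4. Just inside the minimum lay SLC10A4 (mean 104.2), SLC44A3 (104.3) and SLC6A9 (104.6), and just outside lay SLC45A1 (96.7), SLC22A4 (90.9) and SLC24A1 (89.7).

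The libraries held scaled totals of 18082164 to 19682128, and 4 of them gave back whole reads, 17427519 to 22253295 per library. CD274, which encodes PD-L1, went against the label: its scaled reads were 28.3, 38.4 and 47.8 for vector and 16.8, 19.2 and 30.9 for nPD-L1 (log2 fold change -0.76, adjusted p = 0.338 by limma), so the groups are named here by their labels. The markers of the labelled cell type were low apart from FGB, and whether the cells are Hep3B was not tested. ALB, APOA1, APOB and TTR stood between 0 and 2.89 scaled reads in all libraries, SERPINA1 at 7.91 to 41.4 and FGB at 962 to 1540.5. HNF4A stood at 6.24 to 19.2 in vector and 33.8 to 51.6 in nPD-L1 libraries (limma adjusted p = 0.0232). The 7 liver markers measured summed to 982 to 1562 and 1064 to 1177 scaled reads, nearly all of it FGB. AFP and CD3E were not analysed here. Summed scaled reads of the fibroblast pair COL1A1 and PDGFRB were 58.2 to 83.8 in vector and 452 to 494 in nPD-L1 libraries, nearly all of it COL1A1, with PDGFRB at no more than 8.31. The leukocyte markers PTPRC and CD14 summed to at most 16.8 and the endothelial markers PECAM1 and VWF to at most 6.06 in any library. The part of these differences in the results below was not tested, and in bulk RNA fewer cells of a type and less RNA per cell cannot be told apart.

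Which carriers differed between nPD-L1 and vector cells was examined with limma on log2(scaled reads + 1) over the 15076 genes that reached 10 scaled reads in at least 3 libraries, with Benjamini-Hochberg adjustment over all of them. All 183 solute carrier genes were among the genes tested. At an adjusted p under 0.05, 10 (5.46%) were higher in the libraries labelled nPD-L1, where the share over all genes tested was 4.04%. Lower were 0, where it was 0.922% (4.96% in either direction). Over protein-coding genes with a mean of at least 100, the shares were 4.69% higher and 1.05% lower. The 10 were SLCO5A1, SLC26A2, SLC35E4, SLC1A4, SLC45A3, SLC6A8, SLC30A1, SLC12A7, SLC19A2 and SLC41A2. SLCO5A1 alone was also at least 2-fold higher, against 2.03% of all genes tested, and 0 were at least 2-fold lower, against 0.451%. In this fit the share of carriers called was close to the background, so these are 10 named genes and not a result about carriers as a class, which was not tested. Most of the 183 genes differed little: for 145 (79.2%) the fold change lay within 1.2-fold, as for 79.4% of all protein-coding genes with a mean of at least 100. The share over all genes tested was 69.2%. The median log2 fold change was 0.02, beside -0.02 over all genes tested.

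At an unadjusted p under 0.05, 29 of the 183 solute carrier genes were higher and 2 were lower in limma, where 9.53% and 4.71% of all genes tested were. The libraries of both groups did not overlap for 41 of the 183 genes. All 3 libraries labelled nPD-L1 stood above all 3 vector libraries for 35 (19.1%) and below them for 6 (3.28%), beside 12% and 8.54% of all genes tested. Over protein-coding genes with a mean of at least 100 these shares were 13.4% and 8.75%. The number called higher among the 183 genes depended on single libraries. Without nPD-L1 replicate 1, 2 or 3 it was 5, 6 and 6, beside 2.27%, 2.54% and 2.24% of all genes tested in those fits. Without vector replicate 1, 2 or 3 it was 6, 18 and 14, beside 2.74%, 5.33% and 4.58%. Without vector replicate 2, SLC38A2 and SLC8A1 were called lower, 2 genes beside 1.63% of all genes tested. With the replicate number as a block it was 22, with SLC38A2 called lower, beside 6.15% and 1.71% of all genes tested. The genes this added were SLC4A11, SLC7A1, SLC7A5, SLC7A6, SLC12A4, SLC16A7, SLC17A5, SLC20A1, SLC25A37, SLC25A45, SLC29A3 and SLC43A2. The higher calls added with no filter, or without vector replicate 2 or 3, were all among them. On the whole reads of 4 libraries, edgeR called 3 carriers higher (SLCO5A1, SLC1A4 and SLC12A7), DESeq2 called 4 (these and SLC26A2), and both called 0 lower. Of all genes tested they called 1.56% and 2.21% higher.

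**Figure D1:**
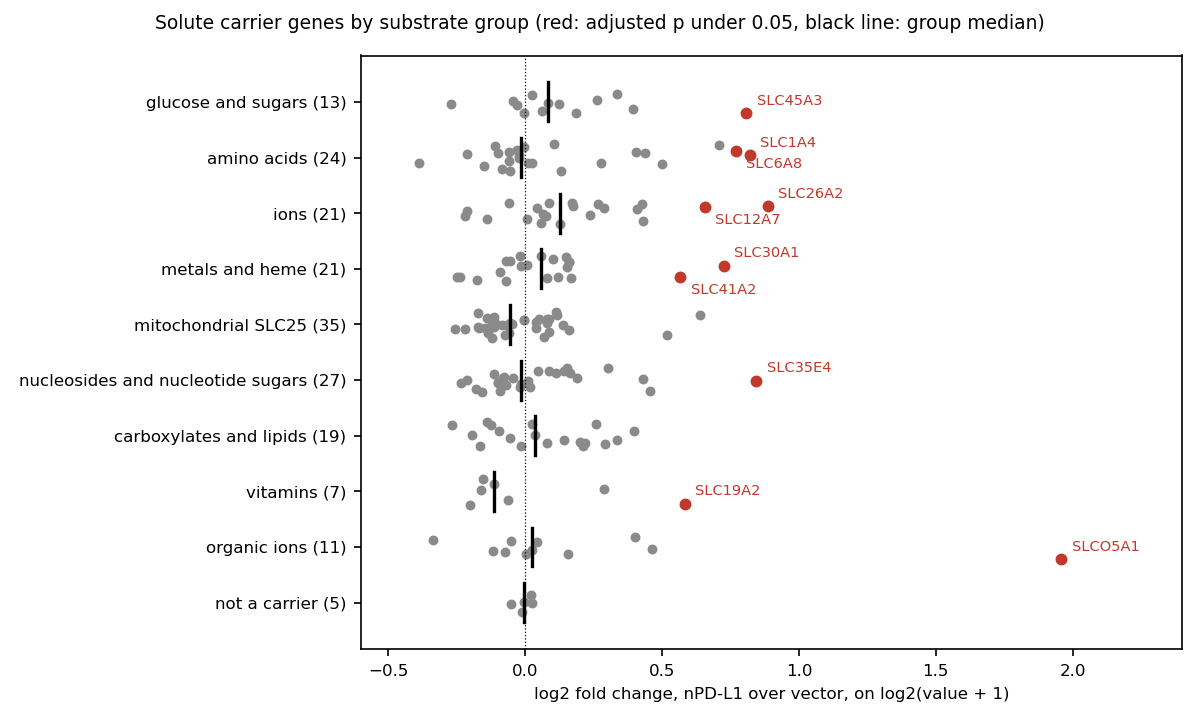
Log2 fold change of each of the 183 genes, nPD-L1 over vector on log2(scaled reads + 1), by substrate group with the number of genes in brackets. Each point is a gene, red where the limma adjusted p was under 0.05, and the black line is the median of the group. All 10 red points lie to the right of 0, with SLCO5A1 at 1.96 far from the others, and the medians run from -0.11 for vitamins to 0.13 for ions.

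The promoters of the genes that rose were set side by side to see which short motifs they hold. RefSeq promoter windows on GRCh38.p14 were matched by symbol for 144 of the 183 genes and for 9 of the 10 that rose, and the 250 bases before the annotated start were read. The following 4 are shown because SLC1A4, SLC26A2 and SLC12A7 kept their calls in at least 16 of 17 alternative settings and SLC30A1 is known to respond to metals. Capitals mark every motif found, on either strand.

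SLC1A4: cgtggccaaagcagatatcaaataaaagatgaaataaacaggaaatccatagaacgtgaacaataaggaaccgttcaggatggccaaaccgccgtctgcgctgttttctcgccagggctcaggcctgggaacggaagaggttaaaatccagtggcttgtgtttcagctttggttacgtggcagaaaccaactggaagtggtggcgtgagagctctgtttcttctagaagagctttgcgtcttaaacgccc
SLC26A2: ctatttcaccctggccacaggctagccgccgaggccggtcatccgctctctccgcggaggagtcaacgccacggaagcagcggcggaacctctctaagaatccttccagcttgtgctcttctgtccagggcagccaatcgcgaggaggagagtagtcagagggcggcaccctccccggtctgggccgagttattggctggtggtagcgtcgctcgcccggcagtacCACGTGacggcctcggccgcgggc
SLC12A7: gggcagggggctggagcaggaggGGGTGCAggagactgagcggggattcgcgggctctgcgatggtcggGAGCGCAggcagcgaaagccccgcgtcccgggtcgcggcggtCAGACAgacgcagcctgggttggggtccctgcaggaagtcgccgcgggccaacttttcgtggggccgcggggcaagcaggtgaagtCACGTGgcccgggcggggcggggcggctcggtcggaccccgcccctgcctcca
SLC30A1: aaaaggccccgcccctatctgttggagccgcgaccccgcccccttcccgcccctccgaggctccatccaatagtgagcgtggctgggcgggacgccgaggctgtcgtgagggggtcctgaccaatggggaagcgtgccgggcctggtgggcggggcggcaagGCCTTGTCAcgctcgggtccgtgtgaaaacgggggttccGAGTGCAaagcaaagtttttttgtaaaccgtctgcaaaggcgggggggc

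These windows lie at chr2:64988229-64988478 on the + strand (SLC1A4), chr5:149960508-149960757 on the + strand (SLC26A2), chr5:1112064-1112313 on the - strand (SLC12A7) and chr1:211579162-211579411 on the - strand (SLC30A1), each written in the direction of its gene. The E-box CACGTG, the site of MYC and related factors, stood 24 to 19 bases before the start of SLC26A2 and 53 to 48 bases before that of SLC12A7, and 6.34% of all 35116 windows of the same length hold it. The SMAD element CAGACA stood 139 to 134 bases before the start of SLC12A7 (13.6% of all windows). For NRF2, TGACNNNGC was found on the opposite strand of SLC30A1, 88 to 80 bases before the start, and in SLC35E4 (10.9% of all windows). The metal response element was searched in 2 forms, TGCACNC and TGCGCNC, a choice made after the zinc exporter SLC30A1 had been seen to be called. TGCACNC was in SLC30A1, 49 to 43 bases before the start, and in SLC12A7 (9.87% of all windows), and TGCGCNC in SLC45A3, SLC12A7 and SLC35E4 (16.8%). Neither the AP-1 site TGACTCA (4.2% of all windows) nor the ATF4 site TGATGCAA (0.772%) was in any of the 9 windows, and SLC1A4 held none of the motifs searched. Among the 144 windows of expressed solute carriers, 11.8% held the E-box, 7.64% the SMAD element, 13.2% the NRF2 motif, 9.03% TGCACNC, 23.6% TGCGCNC and 4.86% the AP-1 site, and 0 held the ATF4 site. These shares lie on both sides of those over all windows. A match is a description of the letters and not of a bound factor, and the start of SLC30A1 in RefSeq lies upstream of the gene end in the deposited table, at 211578742.

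Amino acid carriers held the largest share of carrier reads, and 2 of 24 (8.33%) rose, SLC1A4 and SLC6A8, beside 4.04% of all genes tested. SLC1A4 (ENSG00000115902, GRCh38 chr2:64988477-65023865, + strand) encodes ASCT1, a sodium-dependent exchanger of alanine, serine and cysteine. Its scaled reads were 789, 736 and 824 in vector and 1427, 1363 and 1356 in nPD-L1. All 3 of the latter were above all 3 of the former, and the replicates of each group lay close together. The log2 fold change was 0.82 ± 0.10 (moderated SE from limma, n = 3 per group, 1.76-fold on the group means, limma adjusted p = 0.000549). This call held under all 17 alternative settings, with adjusted p from 1.1e-05 to 0.039 by limma, edgeR or DESeq2.

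SLC6A8 (ENSG00000130821, chrX:153688099-153696593, + strand) encodes the creatine transporter, placed with the amino acid carriers by its family. It had 151, 158 and 149 scaled reads in vector and 285, 249 and 251 in nPD-L1, again without overlap. It rose by 0.77 ± 0.14 on the log2 scale (1.71-fold, limma adjusted p = 0.00815), and the call was lost without nPD-L1 replicate 1.

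The most abundant amino acid carriers did not pass the main test. SLC7A5 encodes LAT1, the exchanger of large neutral amino acids that works as a dimer with the heavy chain encoded by SLC3A2. SLC7A5 had the highest level of all carriers of this group, 6772 scaled reads per kilobase of gene length over the 6 libraries, followed by SLC3A2 with 3067, SLC1A5 with 2361 and SLC38A2 with 1759. Scaled reads of SLC7A5 were 29454, 25375 and 28130.2 in vector and 36664, 38948 and 34224 in nPD-L1. Both groups were separate, with a log2 fold change of 0.41 ± 0.11 (1.32-fold, limma adjusted p = 0.075). It was called in 3 of 17 alternatives, with no filter, with the replicate block and without vector replicate 2 (adjusted p from 0.0134 to 0.78 over all alternatives by limma, edgeR or DESeq2). Its partner SLC3A2 had 16198, 18954 and 14257 scaled reads in vector and 15052, 16451 and 14385 in the others, which overlapped (log2 fold change -0.10, limma adjusted p = 0.774).

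SLC38A2 encodes SNAT2, the sodium-coupled carrier of small neutral amino acids. It had the lowest log2 fold change of the 183 genes. Its scaled reads were 13464, 13576 and 12446 in vector and 9789, 9805 and 10599 in nPD-L1, so all 3 of the latter were below the vector range. The log2 fold change was -0.39 ± 0.10 (0.765-fold) with a limma adjusted p of 0.0545, just outside the threshold, and 4 of 17 alternatives called it lower. SLC1A5, the glutamine carrier ASCT2, stood at 8024 ± 168 and 7711 ± 489 scaled reads (mean ± SD, n = 3 in vector and nPD-L1), and SLC7A11, the cystine carrier xCT, at 8481 ± 396 and 7881 ± 932. Both groups overlapped for each of these carriers, with limma adjusted p of 0.833 and 0.721.

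SLC7A1, the cationic amino acid carrier CAT1, had 3290.5, 2340.1 and 3803 scaled reads in vector and 4300.1, 4311 and 4458 in nPD-L1. The vector libraries were spread widely and lay below the others (log2 fold change 0.50 ± 0.16, limma adjusted p = 0.123), and 3 of 17 alternatives called it. Of the carriers outside the rule for named genes, SLC7A6, which encodes the arginine and neutral amino acid exchanger y+LAT2, was picked after its values had been seen. It had 455, 282 and 522 scaled reads in vector and 649.6, 615 and 734 in nPD-L1 (log2 fold change 0.71, limma adjusted p = 0.0844), and 4 of 17 alternatives called it. Over the whole group 6 of 24 genes were higher and 1 was lower at an unadjusted p under 0.05 in limma, beside 9.53% and 4.71% of all genes tested. The median log2 fold change was -0.01, and it was above 0 without nPD-L1 replicate 1 or 2 and without vector replicate 2 or 3 (up to 0.04).

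**Figure D2:**
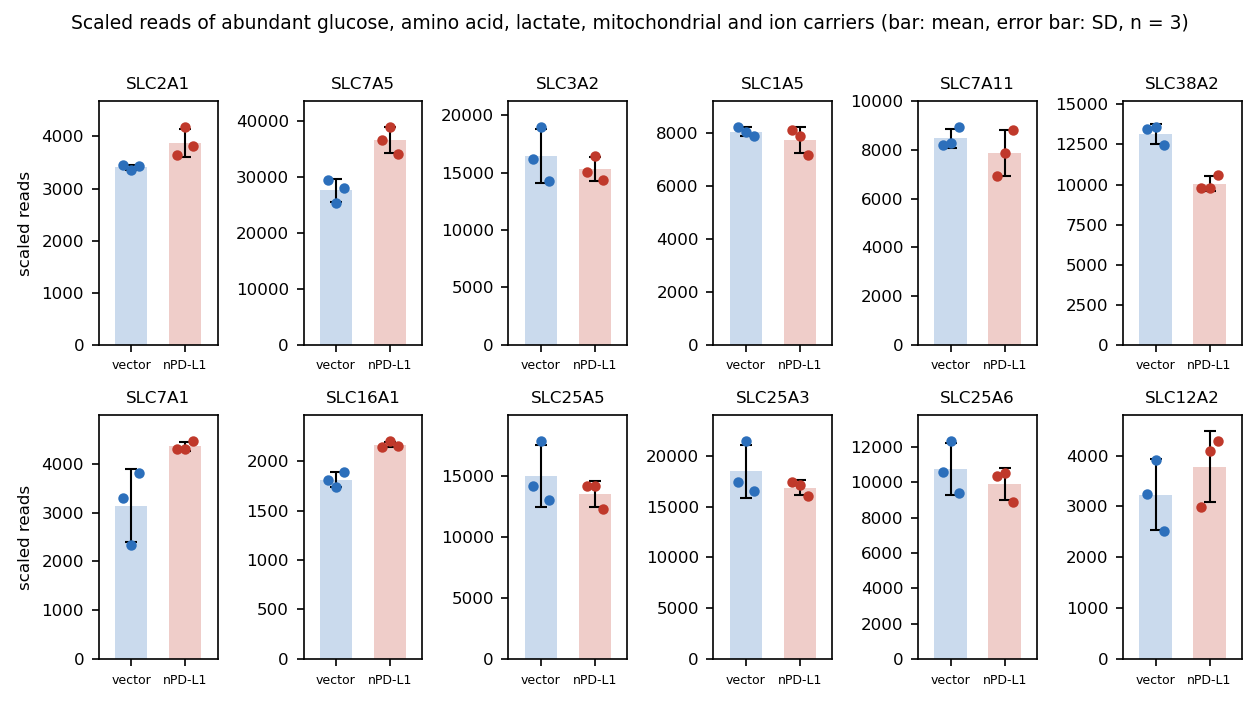
Scaled reads (y axis, from 0) of 12 abundant carriers in the vector (blue) and nPD-L1 (red) libraries. Points are libraries, bars are group means and error bars the SD of 3 libraries. For SLC7A5, SLC2A1, SLC7A1 and SLC16A1 all red points lie above the blue ones and for SLC38A2 below them, and for the other 7 carriers they overlap. None of the 12 passed the limma test.

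Of the 21 ion carriers, 2 rose (9.52%) and 0 fell, beside 4.04% and 0.922% of all genes tested. SLC26A2 (ENSG00000155850, chr5:149960737-149993455, + strand) encodes the sulfate carrier that feeds the sulfation of proteoglycans. Its scaled reads were 786, 678 and 942 in vector and 1466, 1453 and 1490.4 in nPD-L1. The latter were within a narrow range and above every vector library. The log2 fold change was 0.89 ± 0.12 (1.83-fold, limma adjusted p = 0.00163). The call was lost in 1 of 17 alternatives, edgeR on 4 libraries (adjusted p = 0.0623, where the lowest of the alternatives was 5.9e-06). Reads of the gene TIGD6, which overlaps SLC26A2 on the opposite strand and had a mean of 152 scaled reads, cannot be told apart where the counting ignored strand, and whether it did is not given in the sources used here. SLC35B2, which carries the activated form of sulfate into the Golgi, had 1448, 1579 and 1368 scaled reads in vector and 1249.6, 1579 and 1310.0 in nPD-L1, with overlap.

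SLC12A7 (ENSG00000113504, chr5:1050376-1112035, - strand) encodes KCC4, a potassium and chloride cotransporter that lets cells lose salt and shrink. It had 1529, 1255 and 1323 scaled reads in vector and 2213, 2017 and 2231 in nPD-L1. There was no overlap, and the log2 fold change was 0.66 ± 0.11 (1.57-fold, limma adjusted p = 0.00411). This call also held in all 17 alternatives, with adjusted p from 0.00023 to 0.046 by limma, edgeR or DESeq2. SLC12A2, the sodium, potassium and chloride cotransporter NKCC1, which works in the opposite direction, had 3244, 3916 and 2518 scaled reads in vector and 2994, 4081 and 4278 in nPD-L1. These ranges overlapped (log2 fold change 0.24 ± 0.17, limma adjusted p = 0.621). SLC12A4, which encodes the related KCC1 and was picked after its values had been seen, had 653, 464 and 769 scaled reads in vector and 960.5, 745 and 799 in the others (log2 fold change 0.43, limma adjusted p = 0.288).

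The ion carriers had the highest median log2 fold change of the substrate groups, 0.13, with 17 of 21 values above 0. Vector replicate 2 moved with this pattern. It was the lowest of the 6 libraries for 28% of all genes tested and 30.5% of protein-coding genes with a mean of at least 100. The other substrate groups ran from 11.4% (mitochondrial SLC25) to 38.1% (metals and heme), and the ATP-binding cassette transporters described below had 52.6%. For the ion carriers it was the lowest for 14 of the 21 genes (66.7%), and their median deviation from the vector mean in it was -0.13 on the log2 scale. Without it the median was 0.07, with 14 of 21 above 0, and lay below that of glucose and sugars (0.17) and of carboxylates and lipids (0.09), while without vector replicate 1 it was 0.22. The phosphate carrier SLC20A1 stood at 2202 ± 326 and 2921 ± 429.8 scaled reads (mean ± SD in vector and nPD-L1), and the chloride and bicarbonate exchanger SLC4A2 at 4089 ± 453 and 4593 ± 361. Neither passed the limma test, with adjusted p of 0.166 and 0.578. Closer to the threshold was SLC4A11, again picked after its values had been seen, with 995, 797 and 996 scaled reads in vector and 1219, 1273 and 1232 in nPD-L1 (log2 fold change 0.42, limma adjusted p = 0.064).

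Among the 21 carriers of metals and heme, 2 rose (9.52%) and 0 fell, beside 4.04% and 0.922% of all genes tested. SLC30A1 (ENSG00000170385, chr1:211571568-211578742, - strand) encodes ZnT1, the zinc exporter of the plasma membrane, and is a known target of the metal-responsive factor MTF1. It had 1366, 1194 and 1838 scaled reads in vector and 2319, 2404 and 2432 in nPD-L1. Vector replicate 3 was the nearest to the other group, and the groups did not overlap. The log2 fold change was 0.73 ± 0.14 (1.63-fold, limma adjusted p = 0.0138). This call was lost in 7 of 17 alternatives, among them the fits without vector replicate 1 and without each nPD-L1 library (adjusted p up to 0.299 over all alternatives, limma, edgeR or DESeq2).

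SLC41A2 (ENSG00000136052, chr12:104802553-104958744, - strand) encodes a magnesium carrier. Its scaled reads were 421, 437 and 406 in vector and 548, 639 and 695 in nPD-L1, without overlap (log2 fold change 0.57 ± 0.12, 1.49-fold, limma adjusted p = 0.0225). Its call was lost without nPD-L1 replicate 2 or 3 and without vector replicate 1. The other zinc carriers of the group did not pass the test. SLC39A14, which imports zinc and iron, had 2341, 1809 and 2890.1 scaled reads in vector and 2777, 2333 and 2589 in nPD-L1 (log2 fold change 0.15, limma adjusted p = 0.725; -0.02 without vector replicate 2). SLC39A7, which releases zinc from the endoplasmic reticulum, was the most abundant of the group per length, with 829 scaled reads per kilobase, and stood at 2352 ± 97.8 and 2366 ± 149.6 scaled reads in vector and nPD-L1, and SLC39A6 at 1472 ± 44.5 and 1534 ± 79.7. The iron exporter SLC40A1 was under the minimum, with 31.2 to 55.3 scaled reads in vector and 26.9 to 52.6 in the others. Over the group the median log2 fold change was 0.06 (0.02 without nPD-L1 replicate 3, 0.03 without vector replicate 2 and 0.04 without vector replicate 1), and no gene other than SLC30A1 and SLC41A2 had an unadjusted p under 0.05 in limma.

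In the remaining families of the plasma membrane and the secretory pathway, 4 genes rose. SLCO5A1 (ENSG00000137571, chromosome 8, - strand) belongs to the organic anion transporting polypeptides. Its scaled reads were 67.6, 55.3 and 104 in vector and 336, 225 and 313 in nPD-L1. The lowest of the latter was more than the highest of the former, and the log2 fold change was 1.96 ± 0.25 (3.85-fold, limma adjusted p = 0.000801). The call held in all 17 alternatives, with log2 fold changes of 1.76 to 2.21 and adjusted p from 4.9e-08 to 0.014 by limma, edgeR or DESeq2. With 18.4 scaled reads per kilobase SLCO5A1 was one of the least abundant carriers, and since its vector mean was 75.6 scaled reads it is in the set because it was high in nPD-L1. Without it, 9 carriers were called.

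SLC35E4 (ENSG00000100036, chr22:30635652-30669016, + strand) belongs to the nucleotide sugar carrier family, and its substrate is not known. It had 109, 115 and 111 scaled reads in vector and 209, 236 and 166 in nPD-L1 (log2 fold change 0.84 ± 0.17, 1.82-fold, limma adjusted p = 0.0162). The vector values were close together and below all others. Reads of DUSP18, which overlaps it on the opposite strand with a mean of 49.96 scaled reads, cannot be told apart without strand. SLC45A3 (ENSG00000158715, chr1:205657851-205680459, - strand), a sugar carrier family gene best known from prostate, had 150.4, 117 and 154 scaled reads in vector and 258, 231 and 247 in nPD-L1 (log2 fold change 0.81 ± 0.16, 1.74-fold, limma adjusted p = 0.0133). SLC19A2 (ENSG00000117479, chr1:169463909-169486003, - strand) encodes the thiamine carrier THTR1. Its scaled reads were 366, 348 and 314 in vector and 478, 506 and 558 in nPD-L1, with no overlap (log2 fold change 0.58 ± 0.12, 1.5-fold, limma adjusted p = 0.0196). Each of these 3 calls was lost without nPD-L1 replicate 1, SLC35E4 and SLC19A2 also lost theirs without nPD-L1 replicate 2 or vector replicate 1, and SLC45A3 and SLC19A2 without nPD-L1 replicate 3. SLC6A8, SLC30A1, SLC41A2, SLC35E4, SLC45A3 and SLC19A2 were not called in any of the 3 fits on 4 libraries. For each of the 10 genes that rose, an exact two-sided permutation test of the 6 values alone gave p = 0.1, the smallest that 3 libraries against 3 allow.

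**Figure D3:**
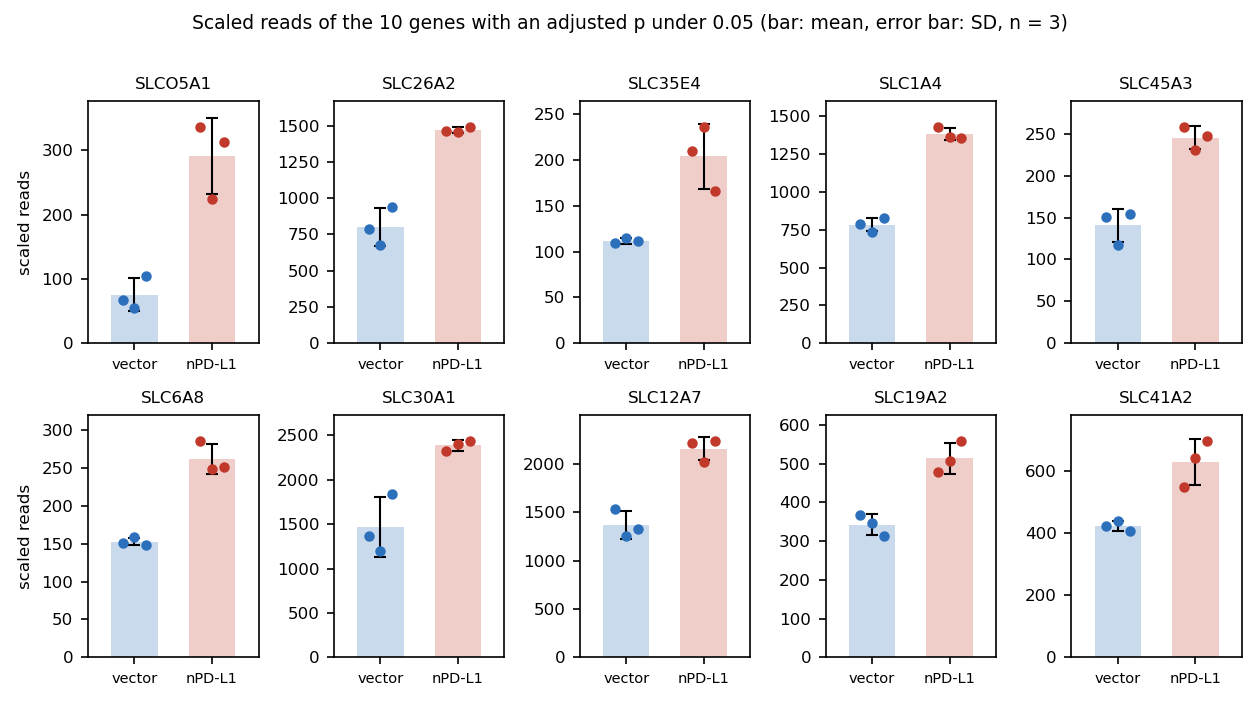
Scaled reads (y axis, from 0) of the 10 solute carrier genes with a limma adjusted p under 0.05, in the vector (blue) and nPD-L1 (red) libraries. Points are libraries, bars are group means and error bars the SD of 3 libraries. In each panel the 3 red points lie above the 3 blue points, by the widest ratio for SLCO5A1 (3.85-fold) and the narrowest for SLC41A2 (1.49-fold).

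Of the 13 carriers of glucose and other sugars, SLC45A3 was the one called (7.69%, beside 4.04% of all genes tested). SLC2A1, which encodes the glucose carrier GLUT1, was the most abundant, with 772 scaled reads per kilobase. It had 3446, 3358 and 3428 scaled reads in vector and 3644, 4177 and 3822 in nPD-L1. The groups were separate but the difference was small (log2 fold change 0.18 ± 0.09, limma adjusted p = 0.437). SLC2A3, the high-affinity glucose carrier GLUT3, stood at 332.5 ± 46.1 and 275 ± 33.2 scaled reads in vector and nPD-L1, with a near-identical copy in SLC2A14 that makes its count uncertain. SLC37A4, which brings glucose 6-phosphate into the endoplasmic reticulum, stood at 527 ± 56.2 and 509 ± 16.3, and SLC50A1 at 861 ± 359.6 and 899.5 ± 168. SLC2A2, the hepatocyte glucose carrier, was nearly absent, at 0 to 2.02 scaled reads in the 6 libraries. The median log2 fold change of the group was 0.08, and it was 0.16 without nPD-L1 replicate 1 and 0.17 without vector replicate 2.

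Of the 19 carriers of carboxylates and lipids, the main limma fit called 0 in either direction, beside 4.04% higher and 0.922% lower of all genes tested. On 4 libraries edgeR and DESeq2 also called 0, where they called 1.56% and 2.21% of all genes tested higher. With the replicate block limma called 1 higher, SLC16A7, beside 6.15% of all genes tested. At an unadjusted p under 0.05 in the main fit 2 were higher, beside 9.53% of all genes tested. They were SLC16A1 and SLC16A7, which encode the lactate and pyruvate carriers MCT1 and MCT2. SLC16A1 had 1805, 1738 and 1894 scaled reads in vector and 2146, 2199 and 2156 in nPD-L1, which was no overlap with a small difference (log2 fold change 0.26 ± 0.09, limma adjusted p = 0.184). SLC16A7, picked after its values had been seen, had 568, 695 and 759 in vector and 803, 868 and 982 in the others (log2 fold change 0.40, limma adjusted p = 0.16). SLC16A3, the lactate exporter MCT4 of glycolytic cells, was low, at 70.7 to 151 and 118 to 144 scaled reads. The fatty acid carrier SLC27A4 stood at 1581 ± 56.2 and 1633 ± 244, and the liver gene SLC27A5, which couples bile acids to coenzyme A, at 243 ± 64.8 and 196 ± 5.61 (log2 fold change -0.27, limma adjusted p = 0.611). The bile acid carrier SLC10A1, a hepatocyte gene, was at 0 to 5.05 scaled reads in all libraries.

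Among the 11 carriers of organic ions, SLC22A3, the organic cation carrier OCT3, was the most abundant, with 408 scaled reads per kilobase. It had 1368, 1369 and 1306 scaled reads in vector and 1355, 1419 and 1387 in nPD-L1, nearly equal in all 6. The lysosomal sialic acid exporter SLC17A5 had 435, 589 and 386 in vector and 517, 722 and 696 in the others (log2 fold change 0.46, limma adjusted p = 0.243). The liver carrier SLCO1B3 was present at 88.8 to 171 and 95.8 to 108 scaled reads. Of the 7 vitamin carriers SLC19A2 was the one called (14.3%, beside 4.04% of all genes tested). The median log2 fold change of the 7 was -0.11 (-0.05 without nPD-L1 replicate 2, -0.06 without vector replicate 3 and -0.07 without nPD-L1 replicate 3). The riboflavin carrier SLC52A2 was the most abundant, at 2392 ± 196 and 2078 ± 171 scaled reads, and the folate carrier SLC19A1 stood at 1200.1 ± 13.4 and 1089 ± 224 and the biotin carrier SLC5A6 at 1323 ± 148 and 1219 ± 63.7. The most abundant of the 5 genes that are not carriers, SLC9A3R2 and SLC2A4RG, were nearly level, at 3347 ± 710 and 3369 ± 462 for the first and 1780 ± 163 and 1718 ± 179 for the other.

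Of the 27 carriers of nucleosides and nucleotide sugars, SLC35E4 was the one called, and 4 were higher at an unadjusted p under 0.05 in limma. The shares over all genes tested were 4.04% called higher and 9.53% higher at that unadjusted p. The nucleoside carrier SLC29A1 (ENT1) had 1597, 1234 and 1638 scaled reads in vector and 1462, 1374 and 1369.8 in nPD-L1, with overlap (log2 fold change -0.08, limma adjusted p = 0.824). The other 3 with an unadjusted p under 0.05 were named after their values had been seen. SLC29A3, the lysosomal nucleoside carrier ENT3, had 249, 279 and 264 scaled reads in vector and 351, 402 and 336 in the others (log2 fold change 0.46, limma adjusted p = 0.0902). SLC35D1, which carries nucleotide sugars for chondroitin sulfate into the endoplasmic reticulum, stood at 359 ± 66.4 and 478 ± 12.8 (0.43, limma adjusted p = 0.181), and SLC35F2 at 1161 ± 29.4 and 1433 ± 67.0 (0.30, limma adjusted p = 0.122). SLC35A4 was among the most abundant per length and stood at 2244 ± 79.5 and 2137 ± 137. Reads of SLC35E2A and SLC35E2B, near-identical copies, are uncertain.

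The mitochondrial SLC25 family was the largest group, with 35 genes. The main limma fit called 0 of them in either direction, beside 4.04% higher and 0.922% lower of all genes tested. On 4 libraries edgeR and DESeq2, which called fewer of all genes (1.56% and 2.21% higher), also called 0. With no filter and with the replicate block limma called 2 higher, SLC25A37 and SLC25A45, beside 2.57% and 6.15% of all genes tested. SLC25A45 was also called without vector replicate 2 and SLC25A37 without vector replicate 3. The family also held the most abundant carrier of all, SLC25A5. SLC25A5 and SLC25A6 encode the adenine nucleotide translocases that exchange ATP for ADP, and SLC25A3 encodes the phosphate carrier, which together supply ATP synthesis. Levels were 9520.3 scaled reads per kilobase for SLC25A5, 4782 for SLC25A6 and 1986 for SLC25A3. SLC25A5 had 14212, 17826 and 12986 scaled reads in vector and 14132, 14207 and 12319 in nPD-L1, and SLC25A3 had 17393, 21419.6 and 16586 and 17445, 17084 and 16071. SLC25A6 had 10608, 12325 and 9397 scaled reads in vector and 10376, 10514 and 8865 in the others. In all 3 the highest library was vector replicate 2, the groups overlapped, and the log2 fold changes were -0.14, -0.12 and -0.12 (limma adjusted p = 0.713, 0.716 and 0.74). SLC25A4, SLC25A5 and SLC25A6 are near-identical in parts and have many pseudogenes, so their division of reads is uncertain.

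Vector replicate 2 was the highest of the 6 libraries for 14 of the 35 SLC25 genes (40%). The share was 29.5% of all genes tested and 32.9% of protein-coding genes with a mean of at least 100. The group median log2 fold change of -0.06 became 0.05 without vector replicate 2, and -0.02 without nPD-L1 replicate 1 or 3. The citrate carrier SLC25A1 had 2764, 3921 and 2180.3 scaled reads in vector and 2732, 3200.1 and 2676 in nPD-L1, a wide spread around equal means. The aspartate and glutamate carrier SLC25A13 stood at 1309.5 ± 46.2 and 1465 ± 92.4 (log2 fold change 0.16, limma adjusted p = 0.529). In limma, 2 of the 35 were higher and 1 was lower at an unadjusted p under 0.05. The shares over all genes tested were 9.53% and 4.71%. These 3 genes were named after their values had been seen. SLC25A37, which encodes mitoferrin 1, the iron importer of mitochondria, had 629.8, 519.5 and 757 scaled reads in vector and 893, 849 and 963 in the others (log2 fold change 0.52, limma adjusted p = 0.0684). SLC25A38, which brings glycine into mitochondria for heme synthesis, had 1134, 1086 and 1116 and 971, 1006 and 888 (-0.22, limma adjusted p = 0.336), and SLC25A45 had 193, 183 and 176 and 229, 370.2 and 277 (0.64, limma adjusted p = 0.0818).

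**Figure D4:**
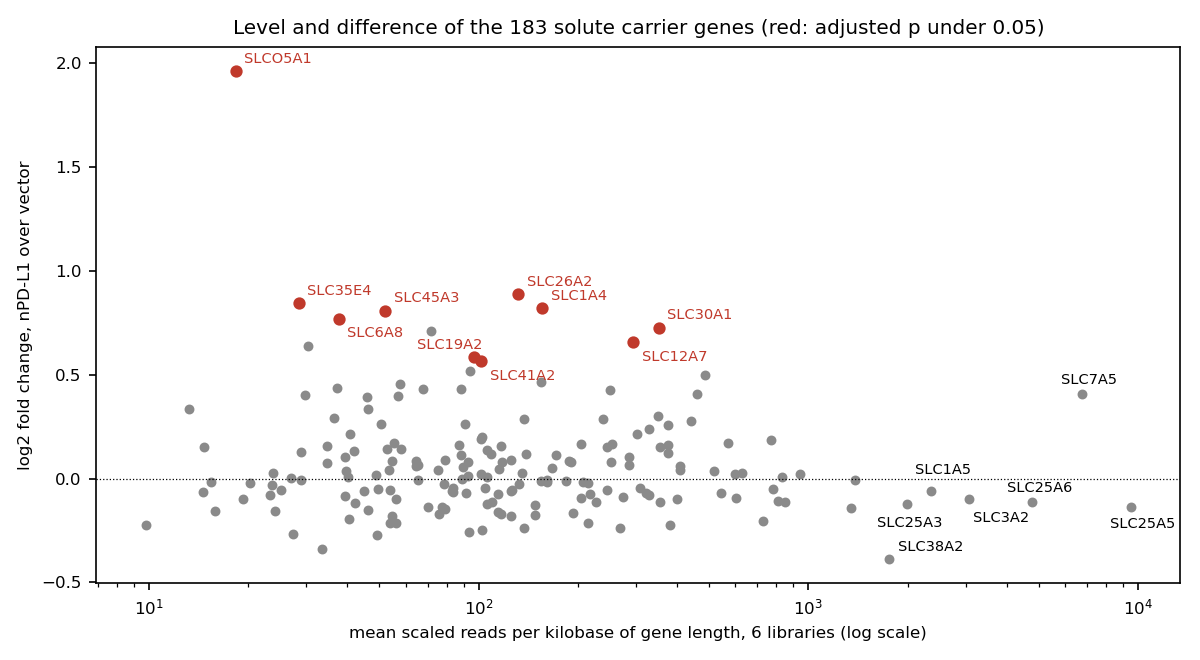
Log2 fold change of nPD-L1 over vector (y axis) against the mean scaled reads per kilobase of gene length over 6 libraries (x axis, log scale) for the 183 genes. Each point is a gene, red where the limma adjusted p was under 0.05. The red points lie between 18.4 (SLCO5A1) and 352 (SLC30A1) scaled reads per kilobase, and the 7 carriers labelled in black, the most abundant, are all grey.

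The scaled reads of the 183 genes together were 1.46%, 1.42% and 1.44% of the total in vector and 1.49%, 1.55% and 1.52% in nPD-L1. The shares of both groups did not overlap, with means of 1.44% ± 0.02 and 1.52% ± 0.029 (SD, n = 3). Amino acid carriers accounted for 0.508% ± 0.027 and 0.552% ± 0.015 (mean ± SD, n = 3), mitochondrial carriers for 0.386% ± 0.029 and 0.370% ± 0.012, and ion carriers for 0.111% ± 0.008 and 0.136% ± 0.0068. Such sums follow the genes with the most reads. SLC7A5, which was not called, had the most of all 183, with means of 27653 in vector and 36612 in nPD-L1. Of the 24 amino acid carriers, 11 had a log2 fold change above 0 and 13 below, so their share does not describe the group.

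Genes that work with carriers were set beside them. Of 20 such genes, 1 (SLC2A4RG) is also among the 183. Of the 20, 18 were tested and limma called 0, beside 4.04% higher and 0.922% lower of all genes tested. On 4 libraries edgeR and DESeq2 also called 0, where they called 1.56% and 2.21% of all genes tested higher. In limma 1 was higher at an unadjusted p under 0.05, beside 9.53% of all genes tested. That one was WNK1, the kinase that controls cation and chloride cotransporters such as SLC12A2 and SLC12A7. It had 3246, 2144 and 3696 scaled reads in vector and 4315, 4164 and 4446 in nPD-L1 (log2 fold change 0.54 ± 0.17, limma adjusted p = 0.127), and it was called in 3 of 17 alternatives. BSG, the chaperone of the lactate carriers, stood at 12030.0 ± 1052 and 11007 ± 679, and ATF4, the stress factor that controls many amino acid carriers, at 9432 ± 1066 and 9329 ± 532. TXNIP and ARRDC4, arrestins that remove glucose carriers from the membrane, were at no more than 5.05 scaled reads in any library.

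The ATP-binding cassette transporters, the other large class, held 19 genes at the same minimum. Of these, 1 rose (5.26%) and 0 fell, beside 4.04% and 0.922% of all genes tested. At an unadjusted p under 0.05 in limma, 3 were higher and 0 lower, beside 9.53% and 4.71%. Vector replicate 2 was the lowest of the 6 libraries for 10 of the 19 (52.6%, beside 28% of all genes tested). ABCG1, an exporter of cholesterol, had 130.2, 251 and 92.5 scaled reads in vector and 369, 571 and 570.1 in nPD-L1, with no overlap (log2 fold change 1.76 ± 0.32, limma adjusted p = 0.00753). The call was lost without nPD-L1 replicate 3, with no filter, and by limma and edgeR on 4 libraries. The drug and glutathione conjugate exporter ABCC1 had 2700.0, 2183 and 2764 in vector and 3559.8, 3320.5 and 3265 in the others (0.41, limma adjusted p = 0.0688), and the cholesterol exporter ABCA1 had 877, 798 and 998 and 934, 1423 and 1521 (0.51, limma adjusted p = 0.168).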

How the data were processed

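Total RNA of 6 Hep3B libraries, 3 per group, was sequenced by a company. The submitters' processing notes name CASAVA, HISAT2 2.0.5 and hg38. The counting tool and its use of strand are not given in the sources used here. The deposited value per gene and library is a signal, the reads on the gene divided by a size factor, although the table presents it as raw. The authors also deposited the mean signal of each group, a log2 fold change and a p-value before and after adjustment, which hold their own comparison and were not used.

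All values of each of the 6 libraries were whole multiples of 1 step, the scaled value of 1 read, within a tolerance of 0.02. Whole reads were recovered for 4 libraries (vector replicates 2 and 3, nPD-L1 replicates 1 and 3). In the other 2 the step was too near 1 to accept (1.009 for vector replicate 1 and 1.011 for nPD-L1 replicate 2). Recovered depth was 17427519 to 22253295 reads on genes. Counting error is larger relative to the value for low genes and is part of the spread between libraries.

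limma 3.58.1 (R 4.3.3, trend and robust eBayes) was fitted on log2(value + 1) over the 15076 genes that 3 libraries or more held at 10 or above, without further scaling. Fold changes are on this scale, which understates low genes. The SE given with a log2 fold change is the moderated one, which draws on the variance trend over all genes. Benjamini-Hochberg adjustment ran over all of them, and an adjusted p under 0.05 was a call. edgeR 4.0.16 and DESeq2 1.42.0 were run on the reads of the 4 libraries as alternatives, with fewer libraries per group than the main fit. Other scalings, filters, pseudocounts, thresholds, member minimums, the replicate number as a block and each library left out were tried. Samples were grouped by title.

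The members, groups and lists were chosen with earlier results of these data known. Genes named were called ones, the 2 most abundant per length of each substrate group, a list of 30 carriers and those next to the minimum, some of which are not reported here. SLC4A1AP was moved to the genes that are not carriers, and the metal motif was added, after the values had been seen. Gene coordinates are those of the deposited table (182 of 183 equal GENCODE 29). Promoter sequences are from RefSeq (GRCh38.p14), the first entry where a gene had 2.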

Additional observations from a re-analysis of the deposited data

How the results depend on the processing

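The number of carriers called higher, 10, was within 1.5 times under upper quartile or TMM scaling, with no filter or a stricter one, pseudocounts of 0.1 and 10, non-robust moderation, a minimum mean of 50 or 200 and without the 5 genes that are not carriers (the last chosen after seeing the data). It became 22 with the replicate number as a block (6.15% of all genes tested). On 4 libraries it was 4 by limma (1.59%), 3 by edgeR (1.56%) and 4 by DESeq2 (2.21%). It was 1 at 2-fold (2.03%), 29 at an unadjusted p (9.53%), and 5 to 18 with 1 library left out (2.24% to 5.33%). The number called lower, 0 (0.922%), became 1 with upper quartile scaling (1.01%), with no filter (0.611%) and with the block (1.71%). It was 2 at an unadjusted p (4.71%), and 0 to 2 with 1 library left out (0.513% to 1.63%), 2 without vector replicate 2. SLC38A2 was among the lower calls in each of the adjusted settings named, and SLC8A1 was the other without vector replicate 2. The cause of these shifts was not tested.

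The median log2 fold change of 0.02 was -0.00465 with upper quartile scaling and 0.0187 to 0.0441 with 1 library left out. Deviations of same-numbered libraries correlated at -0.01, 0.23 and 0.13, and those of differently numbered libraries at -0.22 to 0.08. For replicates 2 and 3 the same-numbered value was the highest. The labels do not say that the numbers pair the samples, so the block was an alternative and not the main fit. Whether the samples were paired was not tested.

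Signs turned for genes near 0. SLC37A4 (-0.05) was 0.0141 by limma, 0.0151 by edgeR and 0.00898 by DESeq2 on 4 libraries, SLC25A1 (-0.00) was 0.00526 with TMM, and SLC8A1 (-0.22) was 0.0385 by limma on 4 libraries. With 1 library left out the ranges were -0.137 to 0.00213 for SLC37A4, -0.203 to 0.22 for SLC25A1, -0.606 to 0.0105 for SLC8A1, -0.198 to 0.00712 for SLC3A2, -0.0228 to 0.315 for SLC39A14 and -0.331 to 0.145 for SLC40A1.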

Other observations

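Solute carrier genes under the minimum mean of 100 scaled reads numbered 147, of which 48 were tested. In either direction limma called 0 of them, beside 4.04% higher and 0.922% lower of all genes tested. So did edgeR and DESeq2 on 4 libraries, where they called 1.56% and 2.21% of all genes tested higher. At an unadjusted p under 0.05 limma had 2 higher and 0 lower, beside 9.53% and 4.71% of all genes tested. Their median log2 fold change was 0.00, with 25 of 48 values above 0.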
